A study of Mus musculus with 6 samples.

Results

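The genes described here encode 7 proteins of antigen presentation by MHC class II: the invariant chain Cd74, the surface chains H2-Aa, H2-Ab1 and H2-Eb1, and the peptide editor chains H2-DMa, H2-DMb1 and H2-DMb2. They were taken by symbol from a deposited expression table of 12067 lines, and all 7 were found there. Each was followed through all 6 libraries of sorted mouse muscle stem cells, without selection on its values. Muscle stem cells, or satellite cells, are the quiescent cells beneath the fibre sheath from which muscle is repaired.

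MHC class II molecules are pairs of an alpha and a beta chain that show peptides from the endocytic route to helper T cells. The invariant chain occupies the groove of a new molecule and steers it to endosomes, where cathepsins trim it to a short remnant, and the editor H2-DM then exchanges that remnant for peptide. Dendritic cells, B cells and macrophages make these proteins steadily, and other cells can be brought to make them by interferon gamma through the co-activator Ciita. Unstimulated muscle stem cells are not counted among the classical presenting cells. Mice of the C57BL/6 strain lack a working alpha partner for H2-Eb1, so its transcript is made without a complete E molecule.

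The mice were C57BL/6 males. Cells of their limb muscles were sorted as quiescent stem cells that carried VCAM and lacked CD45, CD31 and Sca1. They were stained with ThiolTracker Violet at 5 uM, which reports reduced glutathione (GSH), and sorted a further time. The old GSH-low and old GSH-high groups are the dim and bright fractions of cells from mice aged 23 months, and each library pooled 2 animals. The young group is the whole stained population of mice aged 4 months, nearly all of it bright per the labels, with a library for each animal. Each group has 2 libraries, and the labels do not say whether the old fractions came from the same animals. The label of cell identity was not tested, and markers of several cell types are given further below. In old GSH-low libraries 12 satellite cell markers summed to 2788 and 2636 RPKM, and 9 tenocyte (tendon cell) markers to 3036 and 2645. These sums were 3232 and 3052, and 803 and 634, in old GSH-high libraries. In young libraries they were 3386 and 3187, and 38.0 and 35.2. Myod1, the myogenic transcription factor, had 630.0 and 594 RPKM in old GSH-low cells, 877 and 759 in old GSH-high cells, and 688 and 674 in young libraries. RPKM counts reads per kilobase of gene and per 1 M of the library size, which is here a scaled size.

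The start regions of 4 of these genes are shown because they carry the elements through which class II genes are known to be switched on together. The conserved X box is bound by the RFX complex and by CREB-type factors, the Y box by NF-Y, and Ciita docks on them. Windows around the RefSeq start were available for 5 of the 7 genes on build GRCm38.p6. Capitals mark TGATTGG (Y core), the run AAC, any 2 bases and ATGATG (X core) and, in H2-Aa, TGACGTCA (the cyclic AMP element, an X2-type sequence). The windows are H2-Aa at chr17:34287774-34288073 on the minus strand, H2-Eb1 at chr17:34305617-34305916, H2-DMb1 at chr17:34152941-34153240 and H2-DMb2 at chr17:34144999-34145298, the last 3 on the plus strand.
H2-Aa: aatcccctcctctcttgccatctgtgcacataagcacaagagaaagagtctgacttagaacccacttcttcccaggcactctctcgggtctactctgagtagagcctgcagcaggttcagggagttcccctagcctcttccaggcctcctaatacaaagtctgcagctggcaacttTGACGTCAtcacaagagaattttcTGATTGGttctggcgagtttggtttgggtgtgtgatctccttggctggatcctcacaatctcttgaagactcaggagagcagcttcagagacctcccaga
H2-Eb1: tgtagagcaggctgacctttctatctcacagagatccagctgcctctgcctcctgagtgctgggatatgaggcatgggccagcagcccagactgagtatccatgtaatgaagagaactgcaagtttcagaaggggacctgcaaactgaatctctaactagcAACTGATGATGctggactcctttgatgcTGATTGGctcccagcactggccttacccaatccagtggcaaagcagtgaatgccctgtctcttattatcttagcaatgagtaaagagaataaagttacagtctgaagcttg
H2-DMb1: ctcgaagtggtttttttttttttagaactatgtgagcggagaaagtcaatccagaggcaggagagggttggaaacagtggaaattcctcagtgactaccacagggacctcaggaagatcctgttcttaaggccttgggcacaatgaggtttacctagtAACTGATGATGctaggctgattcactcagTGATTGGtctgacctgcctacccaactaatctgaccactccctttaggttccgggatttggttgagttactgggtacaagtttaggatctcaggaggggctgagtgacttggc
H2-DMb2: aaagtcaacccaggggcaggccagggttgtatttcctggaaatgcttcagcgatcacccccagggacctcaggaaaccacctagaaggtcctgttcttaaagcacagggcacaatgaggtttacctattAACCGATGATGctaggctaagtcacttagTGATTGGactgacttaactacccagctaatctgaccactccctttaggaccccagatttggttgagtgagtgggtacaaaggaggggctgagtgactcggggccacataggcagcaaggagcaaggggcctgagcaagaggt

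These letters, and the spacing used next, were chosen after the sequences had been read. The X core began 28 bases before the Y core in H2-Eb1, 29 bases before it in H2-DMb1 and 29 bases before it in H2-DMb2. Among 32851 RefSeq windows of the same length, 7.817% held the Y core, 0.137% the X core and 1.79% the cyclic AMP element, each on either strand. On the gene strand, an X core followed by a Y core with starts 15 to 40 bases apart was found in 4 windows (0.01218%). These were the windows of H2-Eb1, H2-DMb1, H2-DMb2 and H2-Ob, which encodes a subunit of the natural inhibitor of H2-DM. H2-Aa held the Y core 50 bases before its start without that X core, and neither window of H2-DMa held any of the 3 elements. A match is a match of letters only, and binding was not measured.

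Class II transcripts were most abundant in old GSH-low cells, lower in old GSH-high cells and lowest in young cells. The summed level of the 7 genes was 167 and 155 RPKM in old GSH-low libraries, 22.4 and 31.0 RPKM in old GSH-high libraries, and 6.07 and 4.66 RPKM in young libraries. As reads, this was 17549 and 15021 in old GSH-low cells, 3244 and 3998 in old GSH-high cells, and 795 and 592 in young libraries. No library of any group reached into the range of another on this sum. Cd74 made up 46.8% to 59.97% of the summed RPKM in every library. In bulk RNA, a difference in how many cells express a gene cannot be told apart from a difference in RNA per cell.

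**Figure D1:**
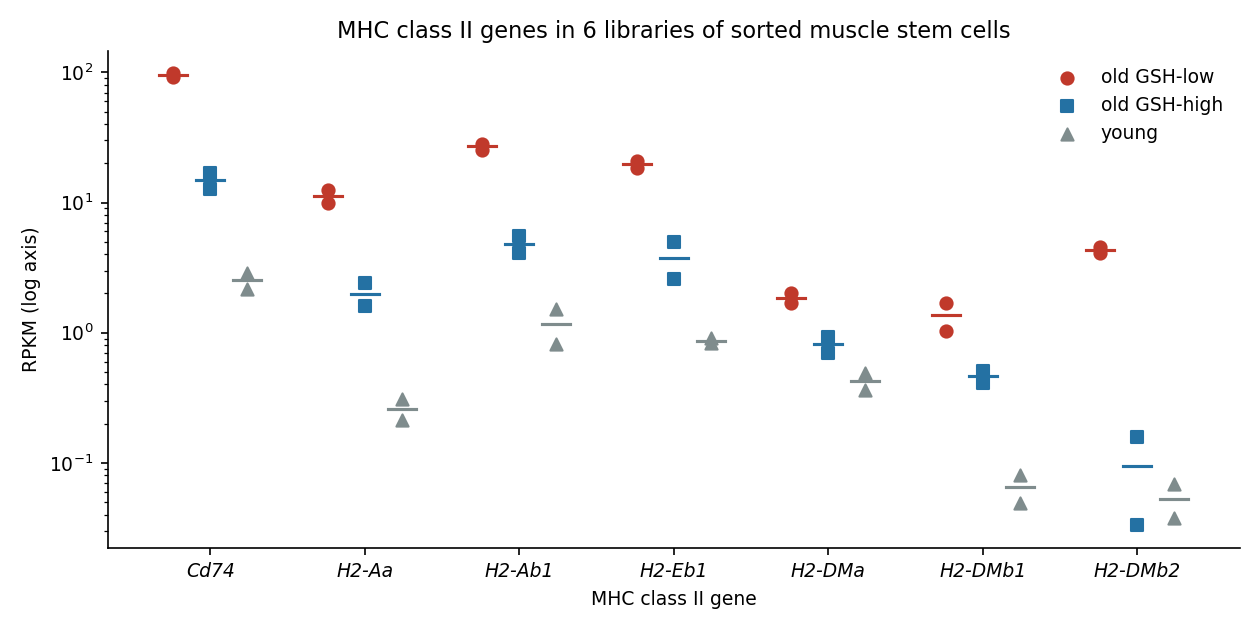
RPKM (log axis) of each MHC class II gene in every library; each point is a library, coloured by group, with old GSH-low on the left of each gene. Old GSH-low points lie above the others for all 7 genes, and for H2-DMb2 the old GSH-high and young points overlap.

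The first comparison asked how old cells of low and high glutathione differ. All 7 genes rose in old GSH-low, by log2 changes of 0.65 to 2.63 and with a median of 2.16, beside a median of -0.01 over all genes tested. The test was limma on log2(RPKM + 1), fitted over all genes and libraries. It called 5.38% of 10609 genes, and 3.69% as higher in old GSH-low. H2-DMa, H2-DMb1 and H2-DMb2 passed the filter on low values only through the old GSH-low libraries. Without that filter the same fit also called 7 of 7, beside 3.94% of all 12067 lines.

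The second comparison, of old GSH-high with young cells, asked how cells of similar staining differ with age. There 5 of the 7 genes rose, beside 15.1% of all genes called higher and 28.8% called in either direction. The median log2 change was 1.23, beside 0.00 over all genes tested. H2-DMa and H2-DMb2 did not pass. Without the filter 6 of 7 passed, H2-DMa among them, beside 15.1% of all lines called higher.

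In the third comparison, of old GSH-low with young cells, all 7 genes rose, with a median log2 change of 3.27 beside -0.02 over all genes. Here 18.1% of genes were called higher and 36.8% in either direction; without the filter 7 of 7 passed beside 19% called higher. The 3 comparisons share libraries, so their results are given side by side and not as separate evidence. With 2 libraries in a group, the p-values rest on few samples.

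**Figure D2:**
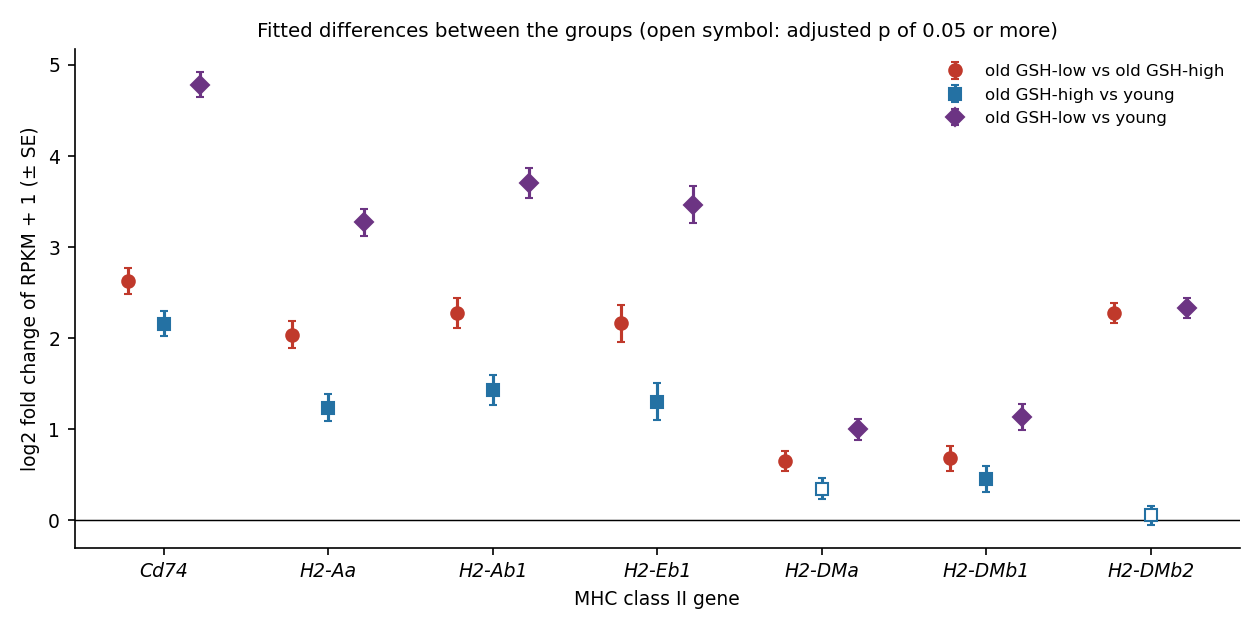
Fitted log2 fold change of RPKM + 1 with its standard error for each gene in the 3 comparisons; open symbols did not pass an adjusted p of 0.05. Open symbols are H2-DMa and H2-DMb2 in old GSH-high against young.

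The surface chains are encoded on chromosome 17. H2-Ab1 (34257689 to 34269419, GRCm38), the beta chain of the A molecule, had 28.4 and 25.5 RPKM in old GSH-low cells, 4.11 and 5.49 in old GSH-high cells, and 1.51 and 0.822 in young libraries. The groups did not overlap. The log2 change of old GSH-low against old GSH-high was 2.28 ± 0.17 (SE; limma adjusted p = 0.000107), a ratio of mean RPKM of 5.62. Against young it was 1.43 ± 0.17 for old GSH-high (limma adjusted p = 0.000380) and 3.71 ± 0.17 for old GSH-low (limma adjusted p = 1.19e-06).

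H2-Aa (34282744 to 34287823, minus strand), the alpha chain that pairs with H2-Ab1, had 12.5 and 9.99 RPKM in old GSH-low cells, 1.59 and 2.39 in old GSH-high cells, and 0.212 and 0.309 in young libraries. Its young level rested on 49 and 69 reads, and its groups did not overlap. It rose by 2.04 ± 0.15 in old GSH-low against old GSH-high (limma adjusted p = 0.000107) and by 1.23 ± 0.15 in old GSH-high against young (limma adjusted p = 0.000471). Old GSH-low stood 3.27 ± 0.15 above young (limma adjusted p = 1.29e-06). The level of H2-Aa per level of H2-Ab1 was 0.440 and 0.391 in old GSH-low cells, 0.388 and 0.435 in old GSH-high cells, and 0.140 and 0.376 in young libraries. The old fractions overlapped in this ratio.

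H2-Eb1 (34305867 to 34316674), the beta chain of the E molecule, had 20.8 and 18.5 RPKM in old GSH-low cells, 2.57 and 4.95 in old GSH-high cells, and 0.906 and 0.832 in young libraries. Its old GSH-high libraries lay further apart than those of H2-Ab1 or H2-Aa, at 345 and 596 reads, yet the groups did not overlap. The log2 changes were 2.16 ± 0.20 for old GSH-low against old GSH-high (limma adjusted p = 0.000361), 1.30 ± 0.20 for old GSH-high against young (limma adjusted p = 0.00177) and 3.47 ± 0.20 for old GSH-low against young (limma adjusted p = 5.28e-06). An antisense gene, Gm20513, overlaps H2-Eb1 and was not analysed here. Whether the libraries keep strand is not stated, and reads of the overlap cannot be told apart.

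Cd74 lies apart from the others, on chromosome 18 (60803848 to 60812652). It had 98.4 and 92.8 RPKM in old GSH-low cells, 12.7 and 16.8 in old GSH-high cells, and 2.86 and 2.18 in young libraries. These were 8481 and 7504 reads in old GSH-low cells, 1476 and 1749 in old GSH-high cells, and 292 and 215 in young libraries. It was the most abundant of the 7 per gene length in each library, and its groups did not overlap. Old GSH-low exceeded old GSH-high by 2.63 ± 0.14 (limma adjusted p = 3.07e-05), a ratio of mean RPKM of 6.47. Old GSH-high exceeded young by 2.16 ± 0.14 (limma adjusted p = 1.49e-05) and old GSH-low exceeded young by 4.78 ± 0.14 (limma adjusted p = 1.12e-07), ratios of 5.86 and 37.9. The annotated microRNA Mir5107 lies within Cd74 on the same strand. Relative to H2-Ab1, Cd74 stood at 3.46 and 3.64 in old GSH-low cells, 3.09 and 3.07 in old GSH-high cells, and 1.89 and 2.65 in young libraries, each a ratio of RPKM.

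The H2-DM genes were the least abundant of the 7 in the old groups. H2-DMa (34119541 to 34139101), the alpha chain of the editor, had 2.00 and 1.70 RPKM in old GSH-low cells, 0.926 and 0.703 in old GSH-high cells, and 0.487 and 0.365 in young libraries. The groups did not overlap. It rose by 0.65 ± 0.11 in old GSH-low against old GSH-high (limma adjusted p = 0.0108), a ratio of mean RPKM of 2.27. Its change in old GSH-high against young was 0.35 ± 0.11, just short of a call at a limma adjusted p of 0.0504, and 7 of the alternatives tried there called it higher. Leaving out old GSH-low replicate 1 (adjusted p = 0.0908) ended the call between the old fractions, as did leaving out old GSH-high replicate 2 (adjusted p = 0.0961). H2-DMa overlaps Brd2 on the opposite strand, so reads of the overlap are uncertain. Against young, old GSH-low was higher by 1.00 ± 0.11 (limma adjusted p = 0.000257).

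H2-DMb1 and H2-DMb2 are neighbouring beta chain genes and either product can pair with H2-DMa. H2-DMb1 (34153072 to 34160230) had 1.03 and 1.69 RPKM in old GSH-low cells, 0.413 and 0.510 in old GSH-high cells, and 0.0489 and 0.0810 in young libraries. The groups did not overlap, and the young values were 5 and 8 reads. Its log2 changes were 0.68 ± 0.14 for old GSH-low against old GSH-high (limma adjusted p = 0.0253), 0.46 ± 0.14 for old GSH-high against young (limma adjusted p = 0.0394) and 1.14 ± 0.14 for old GSH-low against young (limma adjusted p = 0.000391). With 0.1 RPKM added in place of 1, the first call was lost (adjusted p = 0.0588). Leaving out old GSH-low replicate 2 (adjusted p = 0.135) or either old GSH-high library (adjusted p = 0.140 and 0.0884) also ended it. The second call was lost whichever library of its groups was left out (adjusted p = 0.0754 to 0.157).

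H2-DMb2 (34143307 to 34151555) had 4.08 and 4.54 RPKM in old GSH-low cells, 0.0331 and 0.157 in old GSH-high cells, and 0.0377 and 0.0682 in young libraries. These were 366 and 382 reads in old GSH-low cells, 4 and 17 in old GSH-high cells, and 4 and 7 in young libraries. Old GSH-low stood above every other library, while old GSH-high and young overlapped. The log2 change was 2.28 ± 0.11 for old GSH-low against old GSH-high (limma adjusted p = 2.09e-05), with a ratio of mean RPKM of 45.3. That ratio was 27.4 without old GSH-high replicate 1 and 130.3 without old GSH-high replicate 2. The log2 change was 2.33 ± 0.11 for old GSH-low against young (limma adjusted p = 1.31e-06). For old GSH-high against young it was 0.05 ± 0.11 (limma adjusted p = 0.737), and at these read numbers a difference was not detectable.

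Because 1 RPKM is added before the logarithm, the fit understates changes of the low H2-DM genes. With limma-voom on whole reads recovered from the RPKM values, the log2 change of old GSH-low against old GSH-high was 5.84 ± 0.52 for H2-DMb2, 1.53 ± 0.34 for H2-DMb1 and 1.20 ± 0.22 for H2-DMa. The same fit gave 2.72 ± 0.13 for Cd74, 2.54 ± 0.19 for H2-Aa, 2.52 ± 0.17 for H2-Ab1 and 2.49 ± 0.22 for H2-Eb1. It called all 7, beside 4.27% of genes called higher. On this scale Cd74 and the 3 surface chains lay between 2.49 and 2.72, H2-DMa and H2-DMb1 below them and H2-DMb2 above them.

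The balance between the beta chain genes of the editor was then read from their counts. Of the reads assigned to either gene, H2-DMb2 took 80.4% (95% exact binomial interval 76.5% to 84.0%) and 73.6% (69.6% to 77.3%) in old GSH-low libraries. It took 7.69% (2.14% to 18.5%) and 24.3% (14.8% to 36.0%) in old GSH-high libraries. In young libraries it took 44.4% (13.7% to 78.8%) and 46.7% (21.3% to 73.4%), on 9 and 15 reads. The intervals of the old fractions lie far apart, and those of the young libraries are wide. The intervals cover counting error only, and the share itself was not tested between groups. The main transcripts of these genes were 94.42% identical over 1255 aligned bases, with a longest shared run of 221 bases and a median of 3 mismatches per window of 150 bp, the read length. How reads that match both genes were assigned is not given in the sources used here, so the split between them is uncertain. No other pair among the 7 shared a run longer than 37 bases.

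**Figure D3:**
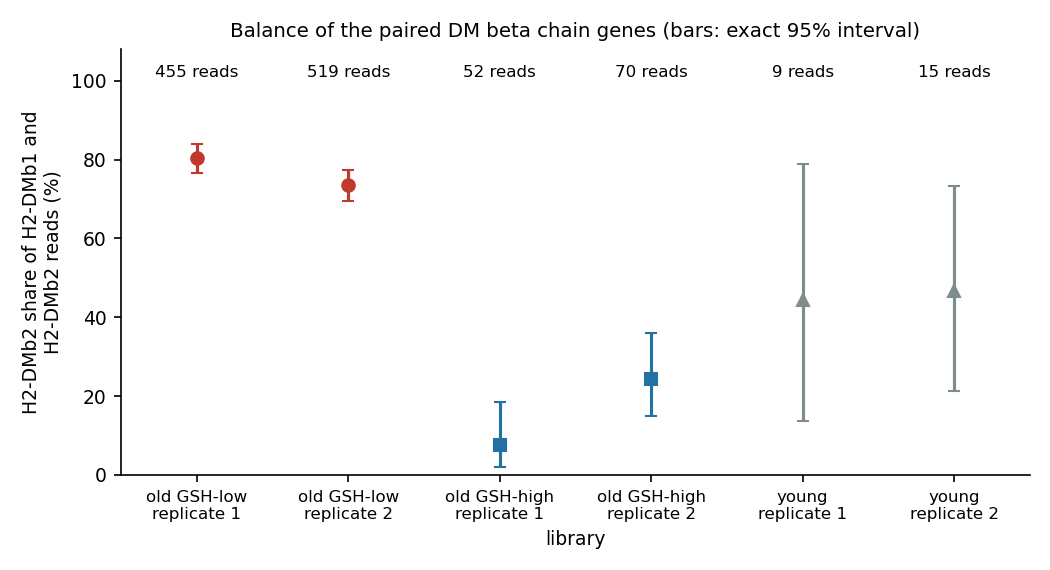
Share of H2-DMb1 and H2-DMb2 reads assigned to H2-DMb2 in each library, in percent, with exact 95% binomial intervals and the number of reads of both genes. The old GSH-low shares are 80.4% and 73.6%, the old GSH-high shares 7.69% and 24.3%, and the young intervals span 13.7% to 78.8%.

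Per kilobase of merged exons, the order of mean levels in old GSH-low was Cd74, H2-Ab1, H2-Eb1, H2-Aa, H2-DMb2, H2-DMa and H2-DMb1. The means of H2-DMa, 1.85 ± 0.213 RPKM, and H2-DMb1, 1.36 ± 0.468 RPKM (SD, n = 2), did not differ beyond their spread. In old GSH-high the order was Cd74, H2-Ab1, H2-Eb1, H2-Aa, H2-DMa, H2-DMb1 and H2-DMb2, and H2-Ab1 at 4.80 ± 0.971 RPKM overlapped H2-Eb1 at 3.76 ± 1.69 RPKM. In young cells H2-DMa (0.426 ± 0.0859 RPKM) stood above H2-Aa (0.261 ± 0.0685 RPKM). H2-Ab1 overlapped H2-Eb1 there, and H2-DMb1 overlapped H2-DMb2. Gene length matters for these orders. The merged exons of H2-Aa span 3798 bases but its main transcript 1128, and on transcript length its level in old GSH-low cells, 37.9 ± 6.00 RPKM, was close to that of H2-Eb1, 32.6 ± 2.64 RPKM, with overlapping libraries. In young libraries H2-DMa and H2-Aa had 0.886 ± 0.179 and 0.878 ± 0.231 RPKM on transcript length and overlapped. Their order in young cells thus held on merged exon length only.

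The H2-DM, A and E genes lie within 197.1 kb of chromosome 17, which also holds 5 other measured genes. Of those, Tap1 and Tap2 encode the peptide transporter of class I presentation, and Psmb8 and Psmb9 encode subunits of the immunoproteasome. None of these 4 passed in old GSH-low against old GSH-high, and all 4 rose in old GSH-high and in old GSH-low against young. Among all genes tested 5.38% were called between the old fractions, so that count is not read as particular to these 4. The shares called higher against young were 15.1% in old GSH-high and 18.1% in old GSH-low. Tap1 had 13.5 and 12.5 RPKM in old GSH-low cells, 12.8 and 10.98 in old GSH-high cells, and 5.87 and 6.84 in young libraries. Its log2 change was 0.12 ± 0.11 for old GSH-low against old GSH-high (limma adjusted p = 0.592) and 0.81 ± 0.11 for old GSH-high against young (limma adjusted p = 0.000769). Psmb8 had 4.81 and 4.61 RPKM in old GSH-low cells, 4.88 and 4.63 in old GSH-high cells, and 2.66 and 1.86 in young libraries. The fifth gene, H2-Ob, was below the filter, with 377 and 240 reads in old GSH-low cells, 4 and 3 in old GSH-high cells, and 9 and 3 in young libraries. Without the filter H2-Ob rose by 1.08 ± 0.11 in old GSH-low against old GSH-high (limma adjusted p = 0.000769).

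**Figure D4:**
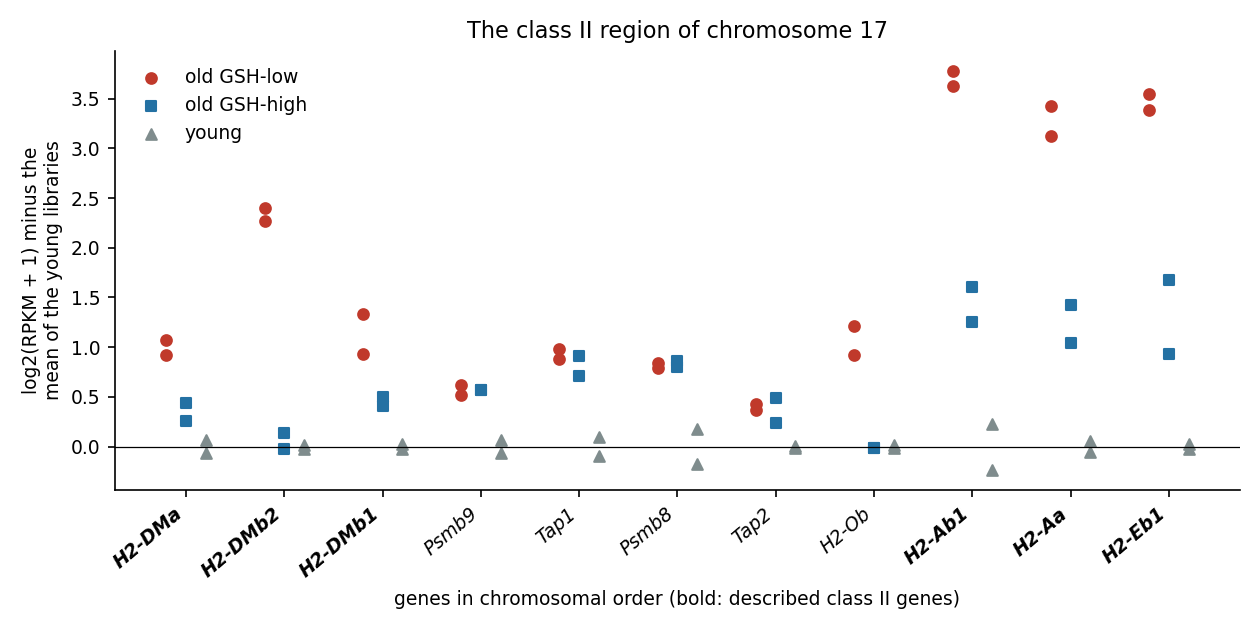
Difference of log2(RPKM + 1) from the mean of the young libraries for the 11 measured genes of the class II region, in chromosomal order, each point a library. The described class II genes (bold) separate old GSH-low from old GSH-high, while for Psmb9, Tap1, Psmb8 and Tap2 the old fractions overlap.

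Class I presentation, through which all nucleated cells show internal peptides, was compared as a list of 14 genes, all measured. None passed in old GSH-low against old GSH-high, 9 rose and 2 fell in old GSH-high against young, and 9 rose and 2 fell in old GSH-low against young. Over all genes 5.38% were called between the old fractions, and 15.1% and 18.1% were called higher against young in old GSH-high and old GSH-low. The list's median log2 changes were -0.01, 0.48 and 0.50. B2m, the shared light chain of class I, had 1194 and 1107 RPKM in old GSH-low cells, 1074 and 1120.5 in old GSH-high cells, and 674 and 548 in young libraries. Nlrc5, the class I counterpart of Ciita, had 3.08 and 2.62 RPKM in old GSH-low cells, 3.53 and 3.20 in old GSH-high cells, and 0.837 and 1.10 in young libraries. It rose by 1.15 ± 0.11 in old GSH-high against young (limma adjusted p = 0.000151), and its log2 change in old GSH-low against old GSH-high was -0.18 ± 0.11 (adjusted p = 0.421). Tapbp, H2-D1 and H2-T23 also rose against young in both old fractions, while Calr and Pdia3, chaperones of the endoplasmic reticulum, fell. The heavy chain H2-K1 did not pass in any comparison; it had 399.95 and 415 RPKM in old GSH-low cells, 420.1 and 386 in old GSH-high cells, and 367 and 318 in young libraries.

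The rest of the class II pathway was read from a list of 21 genes, of which 15 were measured and 13 tested. In old GSH-low against old GSH-high the median log2 change was -0.04. There 1 of the 13 rose and none fell, beside 5.38% of all genes called, and this count is not read as particular to the list. The gene that rose was Ifi30, a lysosomal thiol reductase that unfolds antigens, at 9.49 and 10.4 RPKM in old GSH-low cells, 5.63 and 6.46 in old GSH-high cells, and 4.38 and 3.40 in young libraries. Its log2 change between the old fractions was 0.64 ± 0.12 (limma adjusted p = 0.0155). Without the filter H2-Ob and Cd86, a co-stimulator of T cells, rose as well, beside 3.94% of all lines called higher. Ctss, the cathepsin that trims the invariant chain, had 3.01 and 2.98 RPKM in old GSH-low cells, 1.36 and 4.28 in old GSH-high cells, and 0.194 and 0.702 in young libraries, so the old fractions overlapped.

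In old GSH-high against young 4 of the 13 rose, namely Rfx5, Ctss, Ctsb and Ifi30, and 1 fell, Lgmn, an endosomal protease, beside 28.8% of all genes called. In old GSH-low against young Ctss, Ctsb and Ifi30 rose, and Rfxap, Lgmn and March8 fell, beside 36.8% of all genes called. With 13 genes, neither count is read as particular to the list. Rfx5, a subunit of the factor that binds the X box, had 4.96 and 5.05 RPKM in old GSH-low cells, 5.66 and 4.92 in old GSH-high cells, and 3.67 and 4.24 in young libraries. Its partner Rfxap had 16.98 and 17.65 RPKM in old GSH-low cells, 19.4 and 19.6 in old GSH-high cells, and 24.8 and 21.1 in young libraries. The NF-Y subunits Nfya, Nfyb and Nfyc did not pass in any comparison. Ciita, H2-Oa, H2-Eb2, March1, Cd80 and Cd40 were not analysed here.

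Interferon gamma signalling was followed through 9 measured genes of 10 listed; Ifng itself was not analysed here. In old GSH-low against old GSH-high 1 of the 9 rose and none fell, beside 5.38% of all genes called. It was Irf1, a transcription factor induced by interferon, which rose by 0.61 ± 0.09 (limma adjusted p = 0.00373). Irf1 had 26.9 and 24.5 RPKM in old GSH-low cells, 16.9 and 16.0 in old GSH-high cells, and 20.5 and 19.2 in young libraries, so its order of groups was not that of the class II genes. In old GSH-high against young 2 rose, Jak2 among them, and Ifngr2, Irf2 and Socs1 fell. In old GSH-low against young 3 rose, Jak2 and Irf1 among them, and Ifngr2 and Socs1 fell. Over all genes 28.8% and 36.8% were called in these comparisons, in either direction, and the counts of 9 genes are a description. The receptor subunit Ifngr2 had 9.23 and 10.6 RPKM in old GSH-low cells, 9.61 and 10.5 in old GSH-high cells, and 18.9 and 18.4 in young libraries.

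Markers of B cells, which present antigen by class II, moved with the described genes. Of 17 listed B cell markers 11 were measured, and their summed level was 28.6 and 23.3 RPKM in old GSH-low cells, 3.75 and 4.14 in old GSH-high cells, and 1.17 and 1.07 in young libraries. Without the filter, 10 of the 11 rose in old GSH-low against old GSH-high, beside 3.94% of all lines, and Ms4a1 did not pass (limma adjusted p = 0.106). With the filter 7 were tested and rose, and all but Cd79a and Ebf1 passed it only through the old GSH-low libraries. In old GSH-high against young 2 rose, Cd79a and Ebf1, beside 15.1% of all genes called higher. Cd79a, a subunit of the B cell receptor, had 9.45 and 7.76 RPKM in old GSH-low cells, 1.63 and 1.73 in old GSH-high cells, and 0.689 and 0.701 in young libraries. Cd79b had 182 and 117 reads in old GSH-low cells, 1 and 6 in old GSH-high cells, and 5 and 3 in young libraries. Ms4a1 (CD20) had 166 and 165 reads in old GSH-low and 0 in each old GSH-high and young library, where up to 3 reads are possible. The deposited value at those zeros is 0.261 RPKM, which the fit used and the sums above set to 0. Of the 11 markers, 7 had 0 reads in at least 1 old GSH-high or young library, and none had 0 reads in an old GSH-low library. The part of these cells in the class II result was not tested.

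CD45, which the sort excluded, is encoded by Ptprc. It had 553 and 493 reads in old GSH-low cells, 68 and 124 in old GSH-high cells, and 3 and 3 in young libraries. Its level was 0.588 and 0.559 RPKM in old GSH-low cells, 0.0537 and 0.109 RPKM in old GSH-high, and 0.00270 and 0.00279 RPKM in young libraries. Markers common to leukocytes, 9 measured of 10, summed to 29.8 and 27.6 RPKM in old GSH-low cells, 9.95 and 12.1 in old GSH-high cells, and 2.40 and 2.02 in young libraries. Without the filter, 8 of the 9 rose between the old fractions, 7 in old GSH-high against young and 9 in old GSH-low against young. The shares of all lines called higher in these comparisons were 3.94%, 15.1% and 19%. With it 7 were tested, and all but Arhgdib passed it only through the old GSH-low libraries. Arhgdib had 5.79 and 6.10 RPKM in old GSH-low cells, 6.44 and 6.19 in old GSH-high cells, and 1.88 and 1.46 in young libraries, and did not pass between the old fractions. Cd74 per Cd79a, as a ratio of RPKM, was 10.4 and 12.0 in old GSH-low cells, 7.81 and 9.73 in old GSH-high cells, and 4.15 and 3.11 in young libraries. Cd74 per Ptprc was 167 and 166 in old GSH-low cells, 237 and 154 in old GSH-high cells, and 1062 and 782 in young libraries. In young libraries, where Ptprc rested on 3 reads each, Cd74 per Cd79a was lower and Cd74 per Ptprc higher than in either old fraction.

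The dendritic list and the T and NK cell list were thinly covered. Of 13 dendritic markers 4 were measured, with summed levels of 79.8 and 83.5 RPKM in old GSH-low cells, 70.2 and 80.9 in old GSH-high cells, and 97.6 and 118 in young libraries, mostly Fscn1. Ccr7, the homing receptor of activated dendritic cells and lymphocytes, had 8.30 and 9.17 RPKM in old GSH-low cells, 0.270 and 1.27 in old GSH-high cells, and 0.0998 and 0.0258 in young libraries. It rose with Cd83 in old GSH-low against old GSH-high, while Zbtb46 did not pass; Flt3 and Itgax were not analysed here. Cd83, a surface protein of activated presenting cells, had 7.73 and 6.70 RPKM in old GSH-low cells, 1.58 and 2.22 in old GSH-high cells, and 3.72 and 3.97 in young libraries.

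Macrophage markers, 8 measured of 13, summed to 56.6 and 50.9 RPKM in old GSH-low cells, 46.8 and 59.7 in old GSH-high cells, and 10.3 and 12.2 in young libraries. None rose and 1 (C1qa) fell between the old fractions, beside 5.38% of all genes called in either direction. All 8 rose in each old fraction against young, beside 15.1% of all genes called higher in old GSH-high and 18.1% in old GSH-low. Lyz2, a lysozyme of myeloid cells, had 25.7 and 23.4 RPKM in old GSH-low cells, 21.3 and 29.1 in old GSH-high cells, and 2.36 and 4.95 in young libraries. The macrophage sum thus overlapped between the old fractions, where the class II sum did not. Adgre1 and Csf1r were not analysed here. T and NK cell markers, 3 measured of 11, summed to 3.07 and 3.37 RPKM in old GSH-low cells, 0.726 and 0.859 in old GSH-high cells, and 0.140 and 0.0777 in young libraries, and Cd3e was not analysed here.

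Markers of other cells that reside in muscle were summed in the same way. Tenocyte markers, 9 measured, summed to 3036 and 2645 RPKM in old GSH-low cells, 803 and 634 in old GSH-high cells, and 38.0 and 35.2 in young libraries, and all 9 rose in old GSH-low against old GSH-high. Endothelial markers, 14 measured, summed to 39.7 and 32.1 RPKM in old GSH-low cells, 109 and 109 in old GSH-high cells, and 49.4 and 58.4 in young libraries, and 12 fell in old GSH-low against old GSH-high. Of all genes tested, 3.69% were called higher in old GSH-low against old GSH-high and 5.38% in either direction. Pecam1, which encodes the excluded CD31, had 1.41 and 0.877 RPKM in old GSH-low cells, 6.67 and 6.86 in old GSH-high cells, and 1.81 and 3.02 in young libraries. Fibro-adipogenic markers, 12 measured, summed to 1834 and 1700.1 RPKM in old GSH-low cells, 1238 and 1182 in old GSH-high cells, and 842 and 829 in young libraries. Between the old fractions 3 of the 12 rose and 2 fell, with a median log2 change of 0.01. Against young, 10 rose in old GSH-high, and 9 rose and 1 fell in old GSH-low. The shares of all genes called higher there were 15.1% and 18.1%. Pdgfra, which defines fibro-adipogenic cells, had 1.62 and 1.01 RPKM in old GSH-low cells, 1.33 and 1.17 in old GSH-high cells, and 0.135 and 0.328 in young libraries. Satellite cell markers, 12 measured, summed to 2788 and 2636 RPKM in old GSH-low cells, 3232 and 3052 in old GSH-high cells, and 3386 and 3187 in young libraries. Pax7, the defining factor of satellite cells, had 11.2 and 12.6 RPKM in old GSH-low cells, 8.09 and 8.65 in old GSH-high cells, and 7.93 and 7.64 in young libraries. The part of these lists in the class II result was not tested.

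**Figure D5:**
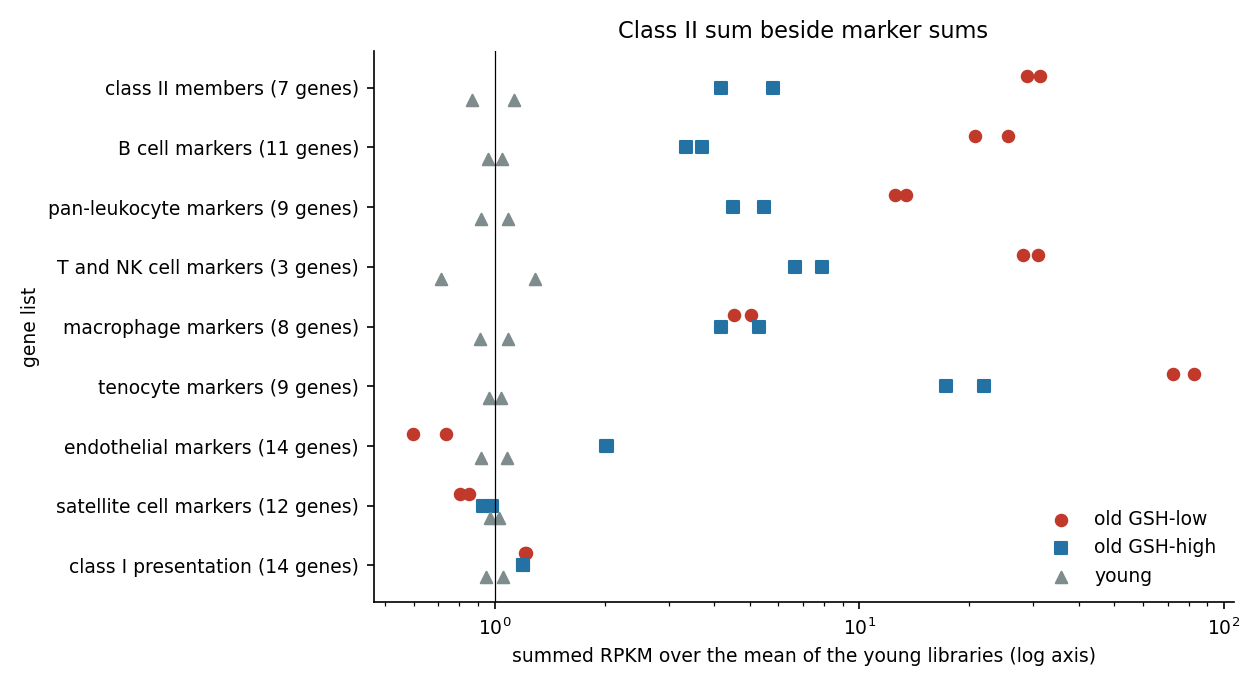
Summed RPKM of the class II genes, of marker lists and of the class I list over the mean of the young libraries (log axis), each point a library, with old GSH-low drawn above old GSH-high and young. The class II, B cell, leukocyte, T and NK cell and tenocyte sums are highest in old GSH-low and intermediate in old GSH-high, whereas the macrophage sums of the old fractions overlap.

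The mean profile of the 7 genes over the 6 libraries was set against every gene whose log2(RPKM + 1) spanned at least 2 units, 197 genes in all. The points share 3 groups, so the coefficients are a description of likeness only. Among the 7 themselves, Pearson's r with the mean profile ran from 0.942 for H2-DMb2 to 0.997 for H2-Ab1. Each of the 7 is part of that mean, so a high r is partly built in and is no evidence of likeness. H2-DMa and H2-DMb1 spanned 1.14 and 1.36 units, less than was asked of the other genes. Of the 197 genes, 53 had r above 0.95 and 6 above 0.99. The 10 most alike were Cd53 (r = 0.9986), Coro1a (0.9978), Ptx4 (0.9959), Laptm5 (0.9952), Col11a2 (0.9939), Cd79a (0.9916), Procr (0.9873), Clec11a (0.9865), Fam180a (0.9839) and Nfkbid (0.9836). Cd53, a tetraspanin of leukocytes, had 5.10 and 4.63 RPKM in old GSH-low cells, 0.647 and 1.18 in old GSH-high cells, and 0.0756 and 0.0391 in young libraries. Ptx4, a long pentraxin, had 20.7 and 20.8 RPKM in old GSH-low cells, 2.51 and 2.28 in old GSH-high cells, and 0.184 and 0.212 in young libraries. Procr, the protein C receptor, had 97.2 and 94.3 RPKM in old GSH-low cells, 30.8 and 30.8 in old GSH-high cells, and 10.6 and 10.2 in young libraries. Of the 10, Cd53, Coro1a and Laptm5 are on the leukocyte list and Cd79a is on the B cell list. Ptx4, Col11a2, Procr, Clec11a, Fam180a and Nfkbid are on neither. Cd53, Coro1a and Laptm5 passed the filter only through the old GSH-low libraries. How many of the 197 genes are on these lists was not counted, so the overlap is not read as an enrichment.

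The recovered reads totalled 50.7 and 46.99 M in old GSH-low cells, 68.79 and 60.76 M in old GSH-high, and 63.11 and 60.05 M in young libraries. A count of 0 allows up to 3 reads, or 0.0436 to 0.0638 CPM (reads scaled to 1 M per library), for counting error only.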

How the data were processed

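RNA copied with oligo(dT) primers from 6 libraries of sorted mouse muscle stem cells was read as single ends of 150 bp, to a stated depth of 68 to 98 M reads. The authors deposited a table of RPKM values for 12067 lines and 6 libraries. Per the submitters' processing notes, STAR, Trim Galore, Subread with its featureCounts, and edgeR were used on the build GRCm38 (mm10), with no versions given; how each was set is not given in the sources used here.

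That the values are RPKM was read from the values: with GENCODE M21 merged exon lengths they gave whole reads, within 0.02 reads plus a relative tolerance of 3e-07, in all libraries for 11809 lines (97.9%), the 7 described genes among them. The reads of the other lines were taken as the smallest whole numbers that fit and may be too low. The table holds no 0; 230 values in 144 genes, none of them among the 7, were read as replaced zeros. Reads per library were 46.99 to 68.79 M. The library sizes implied by the values were 0.963 and 0.979 of these reads in young libraries. In old libraries they were 1.006 to 1.024 of them, so the deposited values carry a further scaling (composition scaling).

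Genes with at least 1 RPKM in 2 or more libraries (10609) were kept. A model of the 3 group means on log2(RPKM + 1) was fitted by limma-trend in limma 3.58.1 (R 4.3.3); it used all 6 libraries and left 3 degrees of freedom. A Benjamini-Hochberg adjusted p under 0.05 over all genes tested, two-sided, was a call. A fold change on this scale understates changes of low genes.

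The genes, lists and tests were chosen with earlier results of these data known. Named are all 7 genes, the called members of the class II, interferon gamma and class I lists, a set of defining markers, and the 10 genes most like the mean profile; values of 2 genes of these lists are not reported here. Main transcripts were the GENCODE entries ending in 201, aligned with Biopython 1.88. Promoter windows came from RefSeq. Alternatives were a pseudocount of 0.1, no filter, limma-voom on recovered reads, 2 other scalings, only the 4 libraries compared, a replicate block, and omission of each library. Fits and read recovery were tested on simulated data. The rest used scipy 1.17.1, pandas 2.3.3, numpy 2.4.6 and, for plots, matplotlib 3.10.9, in Python 3.11.15.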

Additional observations from a re-analysis of the deposited data

How the results depend on the processing

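All 105 alternative values of the 7 genes in old GSH-low against young kept their direction and call. In old GSH-low against old GSH-high 106 of 112 did, and the other 6, all of H2-DMa or H2-DMb1, lost the call. In old GSH-high against young 93 of 105 did; 4 of H2-DMb1 lost the call, 7 of H2-DMa gained it, and H2-DMb2, at 0.05, ran from -0.027 (without old GSH-high replicate 2) to 0.14 (without old GSH-high replicate 1). With a single library left out, the number of the 7 genes called was 5 to 7, 4 to 5, and 7 in the 3 comparisons. Over all genes, 571 changed in old GSH-low against old GSH-high, and 864 with the 4 old libraries alone; with a library left out 312 to 863 did. For old GSH-high against young 3051 changed, and 1493 to 3802 with a library left out; for old GSH-low against young 3901 did, and 2068 to 4295. Without composition scaling, 1924 of 3051 and 2249 of 3741 changes were increases in the old groups against young, beside 1598 of 3051 and 1919 of 3901. The causes were not tested. Adding no filter to a pseudocount of 0.1 or to limma-voom was chosen after the data were seen, as was leaving libraries out of the H2-DMb2 ratio.

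Same-numbered libraries did not deviate together (r = 0.07 between the old fractions, -0.26 and -0.14 between young and old GSH-low or old GSH-high). With a single difference per group, this cannot show whether the old fractions are paired. The main fit did not take numbers as pairs. With the replicate block 479, 2559 and 3350 genes changed in the 3 comparisons. In the old libraries alone 1067 changed with the block, beside 864 without it. With the replicate block 7, 6 and 7 of the described genes were called.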
